A study of Mus musculus with 15 samples.

Results

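The 9 mouse genes followed here were the epithelial-mesenchymal transition (EMT) transcription factors Snai1, Snai2, Zeb1, Zeb2, Twist1 and Twist2 and the epithelial regulators Esrp1, Grhl2 and Ovol1. They were chosen by symbol, and each matched 1 of the 55471 genes in the deposited table. RNA was measured by poly(A)-enriched sequencing in 15 libraries of mouse cells that the labels call MSCLCs, in a study whose title names YAP1, the fusion oncoprotein EWS::FLI1, IGF-1 and bone mesenchymal stem cells. In experiment 1, 4 libraries of the genotype EFPrx1MSCLC (numbers 219, 221, 225 and 229) were set against 3 of the genotype MSC (202, 234 and 237), which the design text calls WT. In experiment 2, 4 libraries of the genotype hr (1-1, 1-2, 2-1 and 2-2) and 2 of ha (1 and 2) were set against 2 of EF (1 and 2), a group that the design text calls EFPrx1. All 8 titles of experiment 2 carry the number 221, with Combi and uns added for hr, Combi and T for ha, and neither for EF. The labels used here do not spell out EF, Prx1, ha, hr, Combi, uns or T, and give no age, sex or separate origin of the cultures within a group. The p-values thus refer to variation among libraries that might be technical repeats. Each experiment had its own flowcell, so flowcell and experiment cannot be told apart, and no test was made between them.

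In EMT, epithelial cells lose their junctions and take on a mesenchymal form. SNAI1, SNAI2, ZEB1 and ZEB2 are zinc-finger repressors that bind E-box sequences in epithelial genes such as Cdh1, which encodes E-cadherin. TWIST1 and TWIST2 are basic helix-loop-helix factors that pair with E proteins such as TCF4, and both are also regulators of mesenchymal development, where they hold back osteoblast differentiation. On the opposing side, ESRP1 sets the epithelial pattern of splicing, GRHL2 activates junction genes and OVOL1 represses EMT factors, Zeb1 among them. Mesenchymal cells can express the EMT factors without a recent epithelial state.

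Sequences upstream of the transcription start are shown for Snai1 and Twist2, since both genes fell in experiment 1 and differ in whether the window holds an E-box (CANNTG, searched on both strands, which read alike). The sequences are from RefSeq on GRCm38.p6, plus strand, 5′ to 3′, and cover the 250 bases before the start, at chr2:167537945-167538194 for Snai1 and chr1:91801211-91801460 for Twist2. Capitals mark the E-box.
Snai1: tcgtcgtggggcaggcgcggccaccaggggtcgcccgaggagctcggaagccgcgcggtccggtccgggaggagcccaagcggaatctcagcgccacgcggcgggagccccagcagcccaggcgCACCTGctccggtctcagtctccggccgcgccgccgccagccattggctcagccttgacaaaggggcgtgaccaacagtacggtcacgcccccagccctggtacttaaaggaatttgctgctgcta
Twist2: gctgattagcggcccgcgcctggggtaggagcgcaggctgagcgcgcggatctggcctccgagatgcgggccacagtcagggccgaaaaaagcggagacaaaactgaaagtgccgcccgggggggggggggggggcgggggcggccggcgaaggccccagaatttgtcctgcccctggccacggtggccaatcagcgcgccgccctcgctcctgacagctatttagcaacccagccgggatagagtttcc
The Snai1 window held 1 E-box, CACCTG, which begins 126 bases before the start and is the form that SNAI and ZEB factors bind. The Twist2 window held none, nor did the windows of Twist1 and Zeb2, the other members searched. Zeb1 was left out of this search. CANNTG occurred in 66.2% and CAGGTG or its reverse complement CACCTG in 17.2% of 32851 mouse promoter windows of the same length. A match is a string of letters and was not tested as a binding site.

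The 6 transcription factor genes were expressed in all 15 libraries, and the 3 epithelial regulators were at or near 0 in all of them. Values are CPM, read counts relative to library size, after TMM scaling within each experiment. Per kilobase of merged exon, the unit in which genes can be compared, Twist1 had 20.8 ± 1.70 CPM per kb in hr (SD, n = 4), 26.3 ± 0.217 in ha (n = 2) and 22.8 ± 0.304 in EF (n = 2). It was the highest of the 9 genes in hr and EF, and the second in ha, EFPrx1MSCLC and WT. Snai2 was the highest in ha, at 38.6 ± 10.3 CPM per kb. It was also the highest in EFPrx1MSCLC, at 20.6 ± 16.3 (n = 4), a value within the spread of Twist1 there, 19.4 ± 7.29. Snai1 was the highest in WT, at 26.9 ± 8.34 CPM per kb (n = 3), and averaged at most 12.3 in the other 4 groups. Zeb2 has the longest merged exons, 19942 bases, and ranked 5 or 6 of 9 in every group. Twist2 was the lowest of the 6 factors in EFPrx1MSCLC, at 1.34 ± 0.784 CPM per kb, and in ha, at 3.48 ± 1.41.

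**Figure D1:**
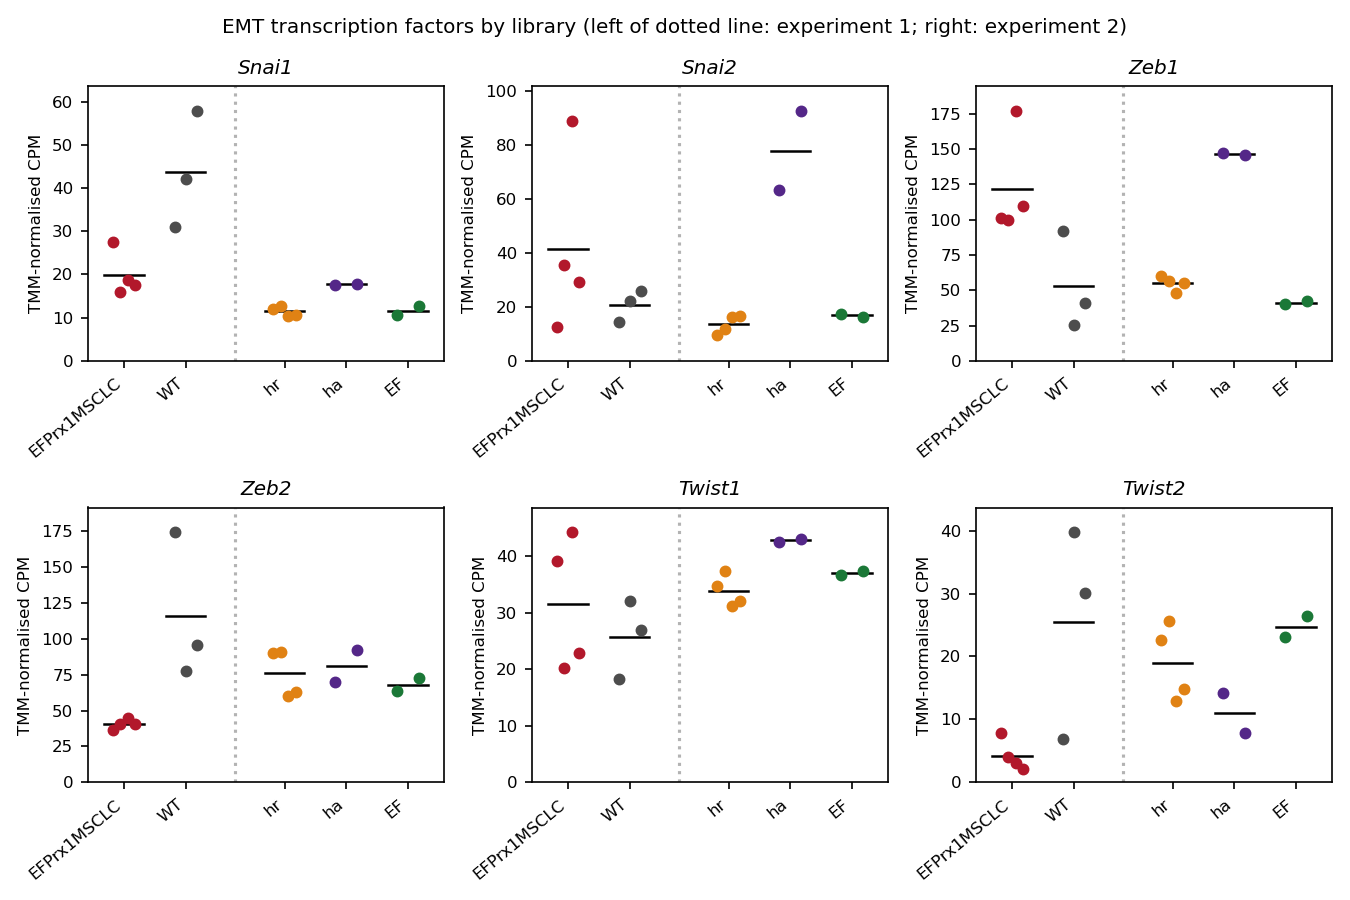
TMM-normalised CPM (vertical axis, linear, from 0) of the 6 EMT transcription factors, 1 point per library, with group means as black lines; experiment 1 (EFPrx1MSCLC, WT) lies left of the dotted line and experiment 2 (hr, ha, EF) right of it. Zeb1 lay at 147 and 146 CPM in ha against 40.2 and 42.3 in EF, and Zeb2 lay between 36.1 and 44.8 CPM in EFPrx1MSCLC, below all 3 WT libraries.

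Esrp1, the splicing regulator, had 2 counts in EFPrx1MSCLC 219, 2 each in hr 2-1 and hr 2-2, and none in the other 12 libraries. Ovol1 had at most 2 counts in any library, and none in 10 of 15. Grhl2 had 1 to 6 counts in EFPrx1MSCLC libraries and 5 to 11 in WT libraries. In experiment 2 it had 1 to 9 counts in hr, 2 in each ha library, and 4 and 2 in EF. Its highest level was 0.831 CPM, in WT 234. A count of 3 corresponds to 0.104 to 0.227 CPM in experiment 1 and 0.177 to 0.266 CPM in experiment 2, so a library at 0 allows a level up to that bound (counting error only). None of the 3 passed the filter, which asks for a count of about 10 in several libraries, and they were not tested. In experiment 1, Grhl2 had 0.0512, 0.144, 0.0640 and 0.208 CPM in EFPrx1MSCLC 219, 221, 225 and 229, against 0.224, 0.831 and 0.360 CPM in WT 202, 234 and 237. In CPM, every EFPrx1MSCLC library lay below every WT library in Grhl2, and also in Ovol1, with counts this low in both groups. In counts, before division by library size, the groups overlapped in Grhl2, and Ovol1 had 1 count in both EFPrx1MSCLC 219 and WT 234.

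**Figure D2:**
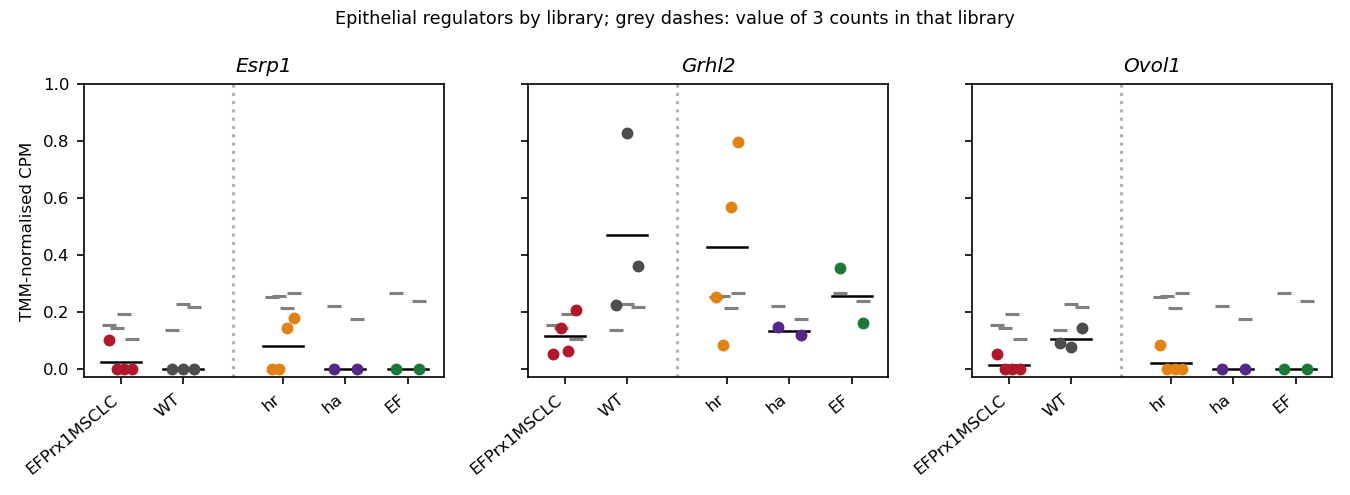
TMM-normalised CPM (vertical axis, linear) of Esrp1, Grhl2 and Ovol1 by group, 1 point per library, with group means as black lines and grey dashes at the value of 3 counts in each library. All points lie under 1 CPM, and most lie at or under the dashes.

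Total expected counts ran from 14906251 to 26833939 in experiment 1 and from 11195431 to 16378416 in experiment 2. WT 202 and EFPrx1MSCLC 225 stood farthest from the other libraries of their groups, so values without both are given below, a choice made after seeing the data. That fit called 6767 genes, against 2887 with all 7 libraries, so a call kept or gained in it is not separate support. The EF pair and the pairs within each hr title line (1-1 with 1-2, 2-1 with 2-2) differed by only 1.29 to 1.35 times the sampling noise, against 16.3 to 17.9 between hr lines and 21.8 between the ha libraries. Such pairs may be repeats of 1 sample, and values with each pair summed to 1 library are therefore also given. The sum over 16 hematopoietic marker genes was 51.2 to 496 CPM in EFPrx1MSCLC and 13290 to 36050 CPM in WT. In experiment 2 it was 8.33 to 10.2 CPM in hr, 17.8 and 36.4 in ha, and 9.48 and 10.1 in EF. The Y-linked gene Ddx3y was at most 0.0640 CPM in EFPrx1MSCLC, against 97.5 in WT 202, 48.6 in WT 234 and 0.144 in WT 237. Epcam, a defining epithelial gene, had no count in any library but EFPrx1MSCLC 219, at 0.102 CPM. The 14 mesenchymal stromal markers, which mark the cell type of the series title, summed to 2971 to 7812 CPM in EFPrx1MSCLC and 9262 to 17250 CPM in WT. In experiment 2 they summed to 5588 to 5952 CPM in hr, 15460 and 15680 CPM in ha, and 5895 and 6020 CPM in EF. The stromal sum thus separated EFPrx1MSCLC from WT and ha from both hr and EF, as several members did, and its part in the member values was not tested. The sum is weighted toward abundant genes such as Col1a2, with 73.2 to 2740 CPM in EFPrx1MSCLC and 5470 to 10600 CPM in WT. In experiment 1 the median log2 fold change of the 14 markers was 0.84, the other way from the sum.

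In experiment 1, Zeb2, Snai1 and Twist2 fell in EFPrx1MSCLC relative to WT, no member rose, and Snai2, Zeb1 and Twist1 did not pass. The 3 called genes of 6 tested compare with 19.8% of the 14596 genes tested, 7.70% higher and 12.1% lower. The median log2 fold change of the 6 was -0.42, against 0.04 over all genes tested. In these cell preparations, fewer cells of a type and less RNA per cell cannot be told apart.

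Zeb2 had 36.1, 40.7, 44.8 and 40.5 CPM in EFPrx1MSCLC 219, 221, 225 and 229, against 174, 77.8 and 95.6 CPM in WT 202, 234 and 237. All EFPrx1MSCLC libraries lay below all WT libraries, and they differed little among themselves. Zeb2 fell by 1.51 ± 0.30 on the log2 scale (SE; edgeR adjusted p = 0.0138), a factor of 2.85. It was called with each of the 7 libraries left out (highest edgeR adjusted p = 0.0369), at -1.16 without WT 202 and EFPrx1MSCLC 225. WT 202 had the highest Zeb2 and the lowest hematopoietic sum of the WT libraries. Most of that sum was Lyz2, at 8340, 27200 and 15500 CPM in WT 202, 234 and 237. Single markers differed in order: Lyz2 and Ctss were lowest in WT 202, and Ptprc and Itgam were highest there. Their part in the Zeb2 values was not tested. The antisense gene Zeb2os shares 653 exon bases with Zeb2, and whether counting used the strand is not given. Zeb2os had 0.384 to 0.798 CPM in EFPrx1MSCLC and 2.74, 16.3 and 12.2 CPM in WT, less than Zeb2 in every library.

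Zeb1, the other ZEB gene, had 101, 100, 177 and 110 CPM in EFPrx1MSCLC 219, 221, 225 and 229, against 92.2, 25.7 and 41.1 CPM in WT 202, 234 and 237. Every EFPrx1MSCLC library lay above every WT library, with WT 202 close below them. The log2 fold change was 1.204 ± 0.46, short of the threshold (edgeR adjusted p = 0.106). The gene was called without WT 202, at 1.88 (edgeR adjusted p = 0.013), without both WT 202 and EFPrx1MSCLC 225, at 1.63 (edgeR adjusted p = 0.00777), and by DESeq2, at 1.18 (adjusted p = 0.0491).

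Snai1 had 27.5, 16.0, 18.8 and 17.6 CPM in EFPrx1MSCLC 219, 221, 225 and 229, against 31.0, 42.1 and 57.9 CPM in WT 202, 234 and 237. The groups did not overlap, though EFPrx1MSCLC 219 came close to WT 202. Snai1 fell by 1.13 ± 0.30 on the log2 scale (edgeR adjusted p = 0.0375), a factor of 2.19. The call was lost without EFPrx1MSCLC 221, 225 or 229, without WT 234 or 237 (highest edgeR adjusted p = 0.165) and without a filter on low counts (0.0572). It held without WT 202 and EFPrx1MSCLC 225, at -1.305 (edgeR adjusted p = 0.0215).

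Snai2, the paralog of Snai1, had 12.7, 35.4, 89.0 and 29.3 CPM in EFPrx1MSCLC 219, 221, 225 and 229, against 14.2, 22.1 and 25.7 CPM in WT 202, 234 and 237. The groups overlapped, and EFPrx1MSCLC 219 and 225 differed from each other more than the group means did. The log2 fold change of 1.01 ± 0.61 did not pass (edgeR adjusted p = 0.272) and was 0.10 without WT 202 and EFPrx1MSCLC 225.

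Twist2 had 7.78, 4.02, 3.14 and 2.05 CPM in EFPrx1MSCLC 219, 221, 225 and 229, against 6.83, 39.7 and 30.1 CPM in WT 202, 234 and 237. The groups overlapped, since WT 202 lay below EFPrx1MSCLC 219, while WT 234 and 237 lay well above all EFPrx1MSCLC libraries. Twist2 fell by 2.59 ± 0.67 on the log2 scale (edgeR adjusted p = 0.0347), a factor of 6.02. The call was lost without EFPrx1MSCLC 221, 225 or 229, without WT 234 or 237 (highest edgeR adjusted p = 0.131) and with limma-voom (adjusted p = 0.0764). It held without WT 202 and EFPrx1MSCLC 225, at -2.93 (edgeR adjusted p = 0.0159). The antisense gene Gm29100, which shares 1477 exon bases with Twist2, had at most 0.674 CPM in experiment 1.

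Twist1 had 39.2, 20.2, 44.2 and 22.9 CPM in EFPrx1MSCLC 219, 221, 225 and 229, against 18.3, 32 and 27 CPM in WT 202, 234 and 237. The groups overlapped, with EFPrx1MSCLC 219 and 225 above all WT libraries and WT 202 below all EFPrx1MSCLC libraries. The log2 fold change of 0.30 ± 0.36 did not pass (edgeR adjusted p = 0.581), and it was -0.11 without WT 202 and EFPrx1MSCLC 225.

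Within WT, library 202 had the lowest Snai1, Snai2, Twist1 and Twist2 and the highest Zeb1 and Zeb2 of the 3 libraries. It also had the lowest hematopoietic sum, though not the lowest value of every marker in that sum. The part of the hematopoietic markers and of the Y-linked difference in the member values was not tested. Of the 16 hematopoietic markers, 14 fell in EFPrx1MSCLC, none rose, and none was at 0 in all libraries of either group. The share of counts from mitochondrial genes also differed, at 4.06% to 8.43% in EFPrx1MSCLC and 1.63% to 3.52% in WT, and its part was not tested.

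Cdh1, the classical target of the SNAI and ZEB repressors, had no count in any EFPrx1MSCLC library, against 9.65, 26.7 and 4.90 CPM in WT 202, 234 and 237 (637 counts in all). It fell (edgeR adjusted p = 0.0078). The 3 WT libraries had 4.90 CPM or more of Cdh1 alongside at least 31.0 CPM of Snai1 and at least 77.8 CPM of Zeb2. These libraries also held hematopoietic markers, and whether the same cells carried Cdh1, Snai1 and Zeb2 cannot be told from them. Esrp2, the paralog of Esrp1, fell by 4.01 ± 0.93 on the log2 scale (edgeR adjusted p = 0.0236), to 0, 0.0479, 0.256 and 0.0347 CPM in EFPrx1MSCLC 219, 221, 225 and 229, against 1.17, 0.982 and 1.87 CPM in WT 202, 234 and 237. It was thus low in both groups, and its call was lost without EFPrx1MSCLC 221 or 229 or WT 234 or 237 (highest edgeR adjusted p = 0.1). Of the 25 epithelial junction and adhesion genes, 9 were tested. Of these, Cdh1 and the tight junction gene Tjp3 fell (-3.53 ± 0.65) and the desmosome gene Pkp2 rose (1.94 ± 0.44). Cdh1 and Tjp3 passed the filter through WT alone. The Pkp2 call was lost without the same 4 libraries, and that of Tjp3 without WT 234. Of 9 epithelial keratins 3 were tested and none was called by edgeR, none also at an unadjusted p under 0.05.

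The genes around the EMT factors moved in several directions in experiment 1. Among 14 TGF-beta inputs, the pathway that induces Snai and Zeb genes in many cell types, 4 rose and 2 fell. Of the ligand genes, Tgfb2 rose by 3.73 ± 0.38 on the log2 scale and Tgfb3 by 1.63 ± 0.33, and Tgfb1 fell by 2.35 ± 0.23 (edgeR adjusted p = 0.00169). Tgfb2 had 66.0 to 155 CPM in EFPrx1MSCLC libraries and 6.41 to 8.35 CPM in WT libraries. Of 12 SNAI and ZEB corepressor genes 3 rose and none fell, with Ajuba, a LIM protein that bridges SNAI1 to other repressors, at 2.605 ± 0.24 (edgeR adjusted p = 0.00134). Among 7 E protein and ID genes 2 rose and none fell, and Tcf4, which encodes a TWIST partner, rose by 1.496 ± 0.28 (edgeR adjusted p = 0.0115). The Tcf4 call was lost without WT 234 or 237, and that of Tgfb3 without WT 237. The median log2 fold change was 0.41 over the TGF-beta inputs, 0.56 over the corepressor genes and 0.44 over the E protein and ID genes, against 0.04 over all genes tested. The 3 of 12 corepressor genes and 2 of 7 E protein and ID genes called stand near the 19.8% called over all genes.

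Of 26 mesenchymal EMT genes 5 fell and 1 rose, with a median log2 fold change of -0.39, a share called near the 19.8% over all genes. The collagen gene Col3a1 (-4.96 ± 0.81), the matrix protease gene Mmp2 (-3.35 ± 0.51) and Sparc (-1.89 ± 0.28), a matrix glycoprotein gene, were among those that fell. Among 14 mesenchymal stromal markers 1 rose and 1 fell, with a median log2 fold change of 0.84. Of 15 epithelial sorting, protease and splicing-program genes 5 were tested and Klf5, an epithelial transcription factor gene, rose by 4.21 ± 0.45 (edgeR adjusted p = 0.002), with 15.6 to 18.2 CPM in EFPrx1MSCLC and 0.432 to 1.26 CPM in WT. The RNA-binding protein gene Rbm47 was the 1 of 8 splicing regulators that fell (-3.87 ± 0.59). Among limb factors that act with TWIST1, Msx1 (3.39 ± 0.72) and Msx2 (3.98 ± 0.76) rose and Lhx9 (-3.79 ± 0.68) fell, of 6 tested. Lhx9 was low in both groups, at 0 to 0.0957 CPM in EFPrx1MSCLC and 0.756 to 0.988 CPM in WT. It passed the filter through WT alone. Of 3 tested family paralogs, Esrp2 and Hand2 (-5.09 ± 1.15), a gene for a TWIST-related factor, fell. Hand2 had 0 to 0.32 CPM in EFPrx1MSCLC and 1.84 to 3.68 CPM in WT. Esrp2 and Hand2 passed the filter through WT alone, so they could hardly have risen. The other 6 of 9 paralogs were not tested. The calls of Hand2, Msx1 and Msx2 were lost without WT 237, those of Hand2 and Msx1 also without WT 234, and that of Hand2 also without EFPrx1MSCLC 229. Of 7 genes of SNAI protein turnover 1 rose and none fell, and none of 4 tested endothelial or 1 tested myogenic marker was called by edgeR (2 and 0 at an unadjusted p under 0.05).

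In experiment 2, Zeb1, Snai2 and Snai1 rose and Twist2 fell in ha relative to EF, while Zeb2 and Twist1 did not pass. The 4 called of 6 tested compare with 42.6% of the 13998 genes tested, 23.0% higher and 19.6% lower. The median log2 fold change of the 6 was 0.43, against 0.05 over all genes tested. Since ha and hr were both compared with the same EF libraries, and hr also with ha, the 3 comparisons share libraries.

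**Figure D3:**
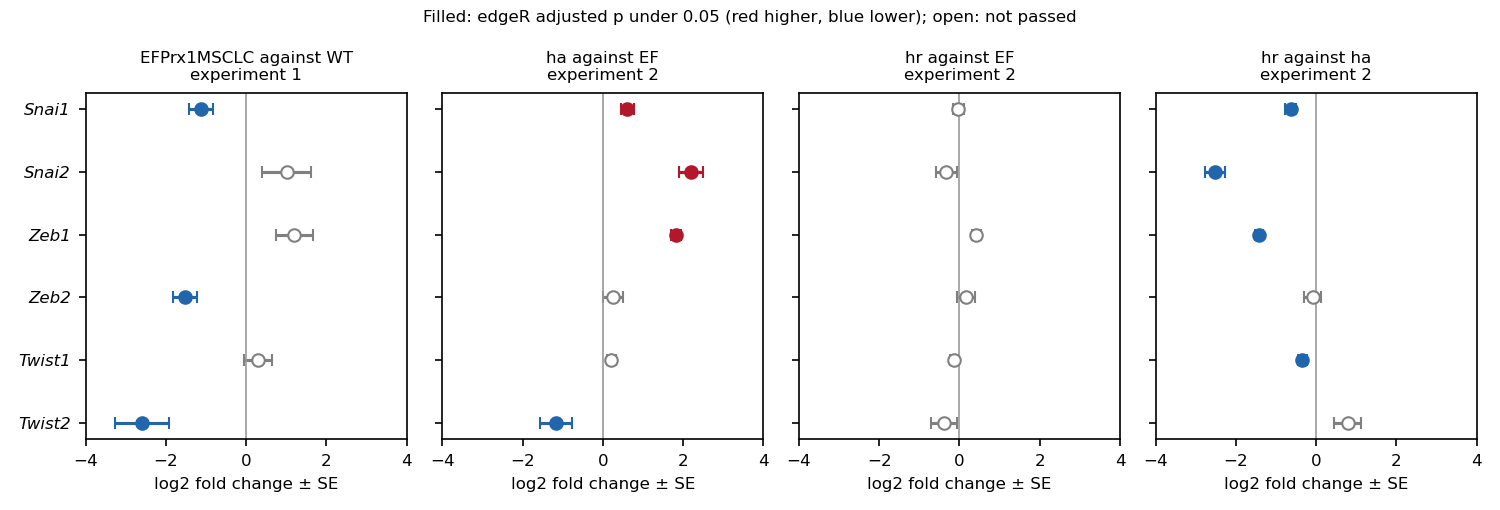
Log2 fold changes (horizontal axis) with standard errors of the 6 tested genes in the 4 comparisons; filled points passed edgeR at an adjusted p under 0.05 (red higher, blue lower) and open points did not. Zeb1 stands at 1.83 in ha against EF and at -1.42 in hr against ha, and all 6 points of hr against EF are open.

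Zeb1 had 147 and 146 CPM in ha, against 40.2 and 42.3 CPM in EF. The ha libraries were close to each other and lay far above EF. Zeb1 rose by 1.83 ± 0.13 on the log2 scale (edgeR adjusted p = 0.000147), a factor of 3.55. With close pairs summed the log2 fold change was 1.797 (edgeR adjusted p = 0.0314), and the call held without each of the 8 libraries.

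Snai2 had 63.2 and 92.6 CPM in ha, against 17.4 and 16.4 CPM in EF. The ha libraries differed from each other, but both lay far above both EF libraries. Snai2 rose by 2.20 ± 0.30 on the log2 scale (edgeR adjusted p = 0.00143), a factor of 4.599, and passed with close pairs summed (edgeR adjusted p = 0.0494) and without each of the 8 libraries.

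Snai1 had 17.6 and 17.9 CPM in ha, against 10.6 and 12.6 CPM in EF. It rose by 0.61 ± 0.17 on the log2 scale (edgeR adjusted p = 0.0211), a factor of 1.53. The call was lost with close pairs summed (edgeR adjusted p = 0.283), without EF 1, EF 2 or ha 2, and without a filter on low counts. Twist2 had 14.2 and 7.89 CPM in ha, against 23.1 and 26.4 CPM in EF. It was the member that fell in ha, by 1.17 ± 0.39 (edgeR adjusted p = 0.0434), a factor of 2.25. Both ha libraries lay below both EF libraries, but the call was lost with close pairs summed (edgeR adjusted p = 0.181) and without EF 1, EF 2, ha 2 or hr 1-1.

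Zeb2 had 69.6 and 91.8 CPM in ha, against 63.5 and 72.6 CPM in EF, and the groups overlapped (log2 fold change 0.25 ± 0.25, edgeR adjusted p = 0.462). Twist1 had 42.6 and 43.1 CPM in ha, against 36.7 and 37.4 CPM in EF, without overlap (0.21 ± 0.12, edgeR adjusted p = 0.185). Neither passed.

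In hr relative to EF, 0 of the 6 tested genes passed edgeR, against 6.95% of all 13998 genes tested, 3.88% higher and 3.07% lower. At an unadjusted p under 0.05 there was 1, Zeb1, which DESeq2 also called (1 of 6), while limma-voom called 0. Zeb1 had 60.4, 56.7, 48.0 and 54.8 CPM in hr 1-1, 1-2, 2-1 and 2-2, against 40.2 and 42.3 CPM in EF. All 4 hr libraries lay above both EF libraries, at a log2 fold change of 0.41 ± 0.11 (edgeR adjusted p = 0.0637, DESeq2 adjusted p = 0.0187). Of the alternatives and omissions run, only DESeq2 and the fit of only the 2 groups compared called it. The log2 fold change was 0.402 with close pairs summed, 0.446 without EF 2 and 0.38 without EF 1. Each of these fits leaves EF with 1 library.

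Snai1 had 12.1, 12.6, 10.3 and 10.7 CPM in hr 1-1, 1-2, 2-1 and 2-2, against 10.6 and 12.6 CPM in EF, a log2 fold change of -0.02 ± 0.15 whose sign turned without EF 2, hr 2-1 or hr 2-2. Snai2 had 9.52, 11.6, 16.3 and 16.7 CPM in the same hr libraries, against 17.4 and 16.4 CPM in EF (-0.32 ± 0.26). The Snai1 groups overlapped throughout, and the Snai2 groups overlapped by hr 2-2.

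Twist1 had 34.8, 37.3, 31.2 and 32.1 CPM in hr 1-1, 1-2, 2-1 and 2-2, against 36.7 and 37.4 CPM in EF (-0.13 ± 0.10). Twist2 had 22.6, 25.7, 12.9 and 14.9 CPM in hr, against 23.1 and 26.4 CPM in EF (-0.38 ± 0.33). Zeb2 had 90.4, 91.0, 59.8 and 62.6 CPM in hr, against 63.5 and 72.6 CPM in EF (0.16 ± 0.22). For Zeb2, hr line 1 lay above both EF libraries and line 2 below both, and for Twist2 line 1 overlapped EF while line 2 lay below it. Line 1 exceeded line 2 by 0.80 on the log2 scale for Twist2, by 0.57 for Zeb2, by 0.23 for Snai1 and by 0.19 for both Zeb1 and Twist1, and the difference was -0.65 for Snai2. Libraries within a line may be repeats, so the difference between lines was not tested.

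Between hr and ha, Zeb1, Snai2, Snai1 and Twist1 fell in hr, none rose, and Twist2 and Zeb2 did not pass. The 4 called of 6 compare with 39.4% of the 13998 genes tested, 17.9% higher and 21.5% lower. The median log2 fold change of the 6 was -0.49, against -0.004 over all genes tested. Zeb1 fell by 1.42 ± 0.10 on the log2 scale (edgeR adjusted p = 0.00011), to 48.0 to 60.4 CPM in hr against 147 and 146 CPM in ha. Snai2 fell by 2.53 ± 0.24 (edgeR adjusted p = 0.000338), to 9.52 to 16.7 CPM in hr against 63.2 and 92.6 CPM in ha. In both genes every hr library lay below both ha libraries, and both passed with close pairs summed (edgeR adjusted p = 0.0185 for Zeb1 and 0.0157 for Snai2).

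Snai1 fell by 0.64 ± 0.14 on the log2 scale in hr relative to ha (edgeR adjusted p = 0.0102), a call lost with close pairs summed (edgeR adjusted p = 0.177). Twist1 fell by 0.34 ± 0.10 (edgeR adjusted p = 0.0309), to a mean of 33.9 ± 2.76 CPM in hr (SD, n = 4) against 42.9 ± 0.388 CPM in ha (n = 2). Its call was lost without any 1 of 7 of the 8 libraries, all but hr 1-2, with close pairs summed (edgeR adjusted p = 0.322), with only the 2 groups compared (0.0618) and without a filter on low counts (0.155). The direction did not change in those fits. Twist2 was at 0.79 ± 0.34 (edgeR adjusted p = 0.107) and Zeb2 at -0.09 ± 0.21 (edgeR adjusted p = 0.772), with overlapping groups.

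Cdh1 and Esrp2 were near 0 in all of experiment 2. Cdh1 had 0.0842 to 0.143 CPM in hr, 0.219 and 0.0589 in ha, and 0.177 and 0.0797 in EF, at most 5 counts over any group, and was not tested. Other epithelial genes did differ. Krt19, a simple-epithelium keratin gene, had 34.7, 34.6, 30.8 and 33.6 CPM in hr 1-1, 1-2, 2-1 and 2-2, 0.146 and 0.118 CPM in ha, and 10.5 and 10 CPM in EF. The 3 groups did not overlap: the log2 fold change was 1.70 ± 0.12 in hr against EF (edgeR adjusted p = 0.00231) and -6.20 ± 0.21 in ha against EF (edgeR adjusted p = 1.14e-05). Krt14, a basal keratin gene, had 14.0, 14.3, 6.41 and 6.30 CPM in hr, 0 and 0.0589 CPM in ha, and 1.15 and 0.718 CPM in EF. It rose in hr against EF (3.45 ± 0.57), having passed the filter through hr.

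**Figure D4:**
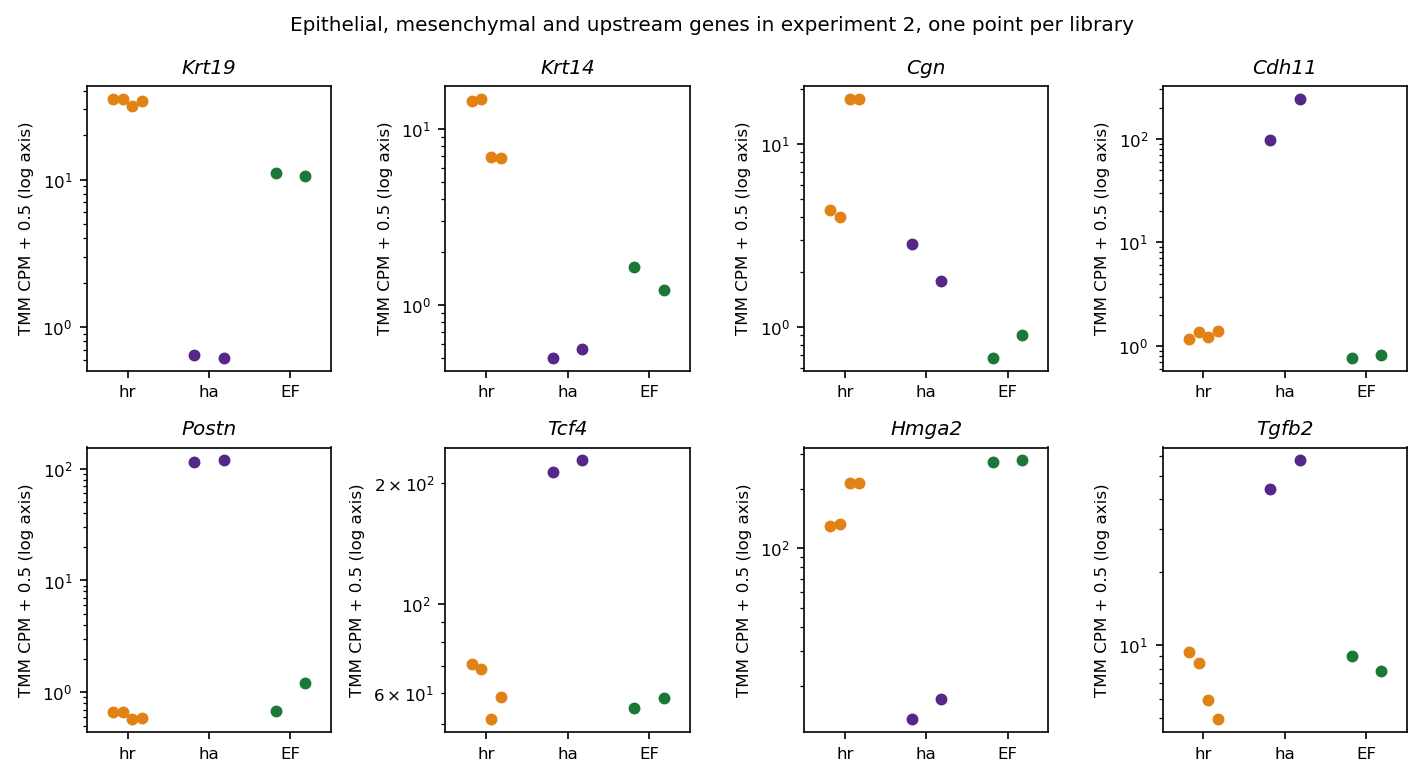
TMM-normalised CPM plus 0.5 (vertical axis, log scale) of 8 genes in hr, ha and EF, 1 point per library. The keratins Krt19 and Krt14 were highest in hr and lowest in ha, and Cdh11, Postn, Tcf4 and Tgfb2 were highest in ha, where Hmga2 was lowest.

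By list, ha against EF had 3 of 4 tested keratins lower and none higher. Of 8 tested junction genes 3 were lower and none higher, among them Llgl2, a polarity gene (-1.98 ± 0.33), and Pkp1, a desmosome gene (-2.62 ± 0.51). The filter took the 3 groups together, so a gene could pass through 1 group alone. It left 5 of 9 keratins and 17 of 25 junction genes untested. A gene near 0 in the other groups could then differ in 1 direction only, which limits the list counts of all 3 comparisons. Klf5 fell by 2.43 ± 0.42 and Sh3yl1 rose by 2.32 ± 0.41 among 3 tested sorting and splicing-program genes. Of 25 tested mesenchymal EMT genes 14 rose and 2 fell, with a median log2 fold change of 1.79. The cadherin gene Cdh11 had 96.0 and 242 CPM in ha, against 0.266 and 0.319 CPM in EF (9.12 ± 0.59, edgeR adjusted p = 0.000122). The matrix gene Postn had 115 and 118 CPM in ha, against 0.177 and 0.718 CPM in EF (7.95 ± 0.36, edgeR adjusted p = 2.69e-05). Tnc, another matrix gene, also rose (8.38 ± 1.35), though its ha libraries differed widely (128 ± 123 CPM, SD, n = 2), and it was not called by limma-voom or with close pairs summed. Among mesenchymal stromal markers 7 of 14 rose and 2 fell, with Col1a2 at 1.26 ± 0.14, Thy1 at 1.86 ± 0.31 and Prrx1 at 1.67 ± 0.28. With close pairs summed, the calls of Llgl2, Pkp1, Sh3yl1, Col1a2, Thy1 and Prrx1 were lost too, and those of Krt19, Klf5, Cdh11 and Postn held.

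Among upstream genes in ha against EF, 8 of 14 TGF-beta inputs rose and 2 fell. Tgfb2 rose by 2.67 ± 0.33 (edgeR adjusted p = 0.000926), with 43.3 and 57.2 CPM in ha, against 8.51 and 7.34 CPM in EF. Ski, a gene for a SMAD corepressor, rose by 1.22 ± 0.20, and Hmga2, a chromatin protein gene that SMADs induce, fell by 4.22 ± 0.33, to 13.0 and 16.7 CPM in ha, against 275 and 279 CPM in EF. Tcf4 was the 1 of 7 E protein and ID genes called, higher by 1.98 ± 0.17 (edgeR adjusted p = 0.000273). Of 12 corepressor genes 3 fell and none rose, with the polycomb gene Suz12 at -1.14 ± 0.10 and Ctbp2, which encodes a corepressor that ZEB proteins bind, at -0.74 ± 0.10. Of 7 tested splicing regulators 4 fell and 1 rose, with Hnrnpm at -0.69 ± 0.13 and Mbnl2 at 0.91 ± 0.15. No gene of 7 in SNAI protein turnover was called by edgeR (1 at an unadjusted p under 0.05), and the 1 tested family paralog was not called (1 at an unadjusted p under 0.05). Of 4 tested hematopoietic markers 3 rose, Mpeg1 among them at 3.95 ± 0.59, while the sum of all 16 stayed under 37 CPM. The other 12 of 16 did not pass the filter. Mpeg1 passed it through ha, at 4.75 and 7.06 CPM, against 0.177 and 0.558 CPM in EF. The part of the hematopoietic markers in the result was not tested. Among the endothelial markers 1 of 5 tested rose, among the myogenic markers the 1 tested fell, and among limb factors 2 of 4 tested rose. With close pairs summed, the calls of Ski, Ctbp2, Hnrnpm and Mbnl2 were lost, and those of Tgfb2, Hmga2, Tcf4, Suz12 and Mpeg1 held. Since 42.6% of all genes were called, 3 of 12 corepressor genes, 1 of 7 E protein and ID genes and 3 of 8 junction genes are no more than the share over all genes.

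In hr against EF, 3 of 4 tested keratins rose and none fell, with Krt7 at 3.08 ± 0.68, and 2 of 8 tested junction genes rose, Cxadr (1.60 ± 0.27) and the tight junction gene Cgn (5.11 ± 1.08). Cgn had 3.87, 3.49, 17.0 and 17.1 CPM in hr 1-1, 1-2, 2-1 and 2-2, against 0.177 and 0.399 CPM in EF, so the hr lines stood apart from each other. All 5 of these calls were lost with close pairs summed and without either EF library. No gene of 25 tested mesenchymal EMT genes was called by edgeR, and 5 were at an unadjusted p under 0.05. Id1, an inhibitor of E protein pairing, fell by 1.29 ± 0.22 (edgeR adjusted p = 0.0201) and was the 1 of 7 called, and Smad6 fell by 1.00 ± 0.20 as the 1 of 14 TGF-beta inputs. Sh3yl1 (1.72 ± 0.38) was the 1 of 3 sorting and splicing-program genes, and Mbnl2 (0.77 ± 0.13) the 1 of 7 splicing regulators, and both rose. Pdgfrb (-1.64 ± 0.38) was the 1 of 14 stromal markers and Lyz2 (-2.41 ± 0.55) the 1 of 4 hematopoietic markers called, and both fell. Lyz2 was low in both groups, at 0.168, 0.17, 0.57 and 0.799 CPM in hr 1-1, 1-2, 2-1 and 2-2, against 2.57 and 2.07 CPM in EF. Over all genes tested 6.95% were called. The 1 of 14 TGF-beta inputs and 1 of 14 stromal markers are near that share. The 1 of 3, 4 or 7 in other lists is a single gene in each. The calls of Id1, Smad6, Sh3yl1, Mbnl2, Pdgfrb and Lyz2 were lost with close pairs summed and without either EF library, as were those of the keratin and junction genes. No corepressor gene of 12, turnover gene of 7, endothelial marker of 5, myogenic marker of 1, limb factor of 4 or family paralog of 1 passed edgeR (1, 1, 1, 1, 1 and 0 at an unadjusted p under 0.05).

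In hr against ha, 15 of 25 tested mesenchymal EMT genes fell and 3 rose, with Cdh11 at -7.75 ± 0.39, Postn at -9.78 ± 0.31 and the intermediate filament gene Vim at 1.26 ± 0.18. Of 8 tested junction genes 6 rose and none fell, with Cxadr at 2.87 ± 0.29 and Llgl2 at 2.37 ± 0.31. Of 4 tested keratins 3 rose, Krt19 by 7.90 ± 0.20 and Krt14 by 7.93 ± 0.86. Klf5 (2.87 ± 0.40) was the 1 of 3 sorting and splicing-program genes called. Among 14 TGF-beta inputs 8 fell and 2 rose, Hmga2 (3.54 ± 0.30) among those that rose and Tgfb2 (-2.92 ± 0.26) and Tgfbr3 (-1.70 ± 0.20) among those that fell. Tcf4 (-1.83 ± 0.14) and Id1 (-1.58 ± 0.22) were among 3 of 7 E protein and ID genes that fell, with none higher. Among 12 corepressor genes 3 rose, with Suz12 at 1.05 ± 0.09 and Ctbp2 at 0.67 ± 0.09, and 1 fell. The 4 of 12 corepressor genes and 3 of 7 E protein and ID genes called are near the 39.4% called over all genes.

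The remaining lists in hr against ha gave 6 lower and 1 higher of 14 stromal markers, with Col1a2 at -1.20 ± 0.11, Pdgfrb at -3.95 ± 0.38 and Thy1 at -2.34 ± 0.25. Of 4 tested hematopoietic markers 3 fell, among them Lyz2 (-4.35 ± 0.52) and Mpeg1 (-3.57 ± 0.44), and 1 rose. Of 7 tested splicing regulators 2 rose and 1 fell, of 4 tested limb factors 3 fell, and of 5 tested endothelial markers 1 fell. The 1 tested family paralog rose. With close pairs summed, the calls of Vim, Ctbp2 and Col1a2 in hr against ha were lost, and those of the other genes named from the lists held. No turnover gene of 7 and no myogenic marker of 1 was called by edgeR (0 and 1 at an unadjusted p under 0.05).

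Genes with the pattern most like each member were sought among 11156 genes by the root mean square difference of log2 CPM, centred within each experiment, over the 15 libraries. The nearest to Zeb2 was Nucb2 (0.14), to Twist1 Afg1l (0.14), to Snai1 Mpdu1 (0.16), to Zeb1 Krba1 (0.22), to Twist2 Rps19 (0.32) and to Snai2 Gng7 (0.44). For Twist2 the next was Rpl28 (0.33), which like Rps19 encodes a ribosomal protein. Next to Zeb1 stood Pkd1 and Tmem8b (both 0.24), next to Zeb2 Ccnl2 (0.20) and Slc44a1 (0.21), and next to Snai1 Xpa (0.18) and Trappc6b (0.19). Next to Snai2 stood Adamts10 (0.45) and Rtl8c (0.48), and next to Twist1 Spsb3 (0.16) and Ciao1 (0.17). Among the members themselves, Snai1 and Zeb2 differed by 0.46 and Snai2 and Twist2 by 1.72. These are descriptions over libraries that share experiments and groups, with no test.

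In the genome, on GRCm38 with GENCODE M21, Snai1 lies on chromosome 2 at 167538195 to 167542814 (plus strand), Snai2 on chromosome 16 at 14705852 to 14709385 (plus) and Twist1 on chromosome 12 at 33957671 to 33959829 (plus). These 3 are short genes of 2 or 3 merged exons. Twist2 lies on chromosome 1 at 91801461 to 91848028 (plus), and Zeb2 on chromosome 2 at 44983632 to 45117395 (minus). Esrp1 lies on chromosome 4 at 11331933 to 11386783 (minus), Grhl2 on chromosome 15 at 37233036 to 37363569 (plus) and Ovol1 on chromosome 19 at 5549136 to 5560646 (minus). Zeb1 lies on chromosome 18 at 5591860 to 5775467 (plus) and shares 198 exon bases with Gm10125 on the other strand, which had at most 1.33 CPM (without TMM scaling).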

How the data were processed

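Per the labels' protocols, RNA was isolated with RNeasy kits and libraries were made by poly(A) enrichment. The deposited values are expected counts, RSEM-style estimates that can be fractional (8.27% were). The submitters' processing notes list STAR, RSEM and GRCm38.p6 with no tool version. No source used here gives the annotation release or the strand setting, so overlapping genes may share reads, and RSEM divides reads between near-identical copies.

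The deposited expected counts were rounded, filtered with filterByExpr by group (minimum count 10), scaled by TMM, and tested with edgeR's two-sided quasi-likelihood test (glmQLFit, robust). P-values were adjusted by Benjamini-Hochberg over all genes tested, with a threshold of 0.05. The 7 libraries of experiment 1 and the 8 of experiment 2 were fitted separately, and within experiment 2 the 3 groups share 1 estimate of the spread. Log2 fold changes carry standard errors, and CPM values are per library or mean ± SD. The tools were DESeq2 1.42.0, limma 3.58.1 and edgeR 4.0.16 under R 4.3.3. The test was run on simulated counts of independent libraries with the same fixed spread for all genes. These data have uneven spread and close pairs, so that run does not show how the test behaves on them. Positions and exon lengths came from GENCODE M21 (55230 of 55471 genes had a position) and 55144 genes had a symbol.

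The members and the 15 other gene lists were chosen with earlier results of these data known. Named genes were all members and Cdh1, up to 3 called genes of each list in each comparison by smallest p, at most 30 per comparison, and the 3 genes of nearest pattern with a mean of at least 5 CPM, of which 1 is not reported here. Of the list of splicing regulators, Qki matched no gene and was not analysed here. Alternatives were DESeq2 size factors, no filter, a filter of 5 CPM, DESeq2's Wald test, limma-voom, each library left out, only the 2 groups compared, the last title number as a block, and close pairs summed. One alternative, without WT 202 and EFPrx1MSCLC 225, was added after seeing the data.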

Additional observations from a re-analysis of the deposited data

Results flagged for a closer look

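In groups of 4 libraries, 8 of 89 gene and group combinations had 1 library far from the other 3. Chance gives about 1 in 20 for independent, normally spread libraries. All 8 were in EFPrx1MSCLC, and in hr, with its close pairs, 1 library can hardly stand apart, so that rate does not apply to the 89. Among the members there was 1, Zeb1, with 177 CPM in EFPrx1MSCLC 225 against 100 to 110 in the other EFPrx1MSCLC libraries. The same library stood apart in Msx1, at 20.2 CPM against 6.04 to 6.66, in Postn, at 1110 against 3.26 to 58.4, and in Mbnl2, at 235 against 83.3 to 102. EFPrx1MSCLC 219 stood apart in Krt7, at 28.6 CPM against 1.49 to 1.79, and in the hematopoietic markers Lyz2, at 254 against 16.0 to 30.2, Ctss, at 19.6 against 0.910 to 2.24, and Adgre1, at 3.79 against 0.287 to 0.512.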

How the results depend on the processing

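Of 366 recomputed fold changes of the members, 320 kept their direction and side of the threshold, 35 lost the call, 5 gained it and 6 turned round. Zeb2 in experiment 1, and Zeb1 and Snai2 in ha against EF and hr against ha, kept their calls in all alternatives run. Those that turned round were all small: Twist1 in experiment 1 (-0.113 without WT 202 and EFPrx1MSCLC 225), Snai1 in hr against EF (0.099 without EF 2, 0.004 without hr 2-2, 0.023 without hr 2-1; lowest -0.14, without EF 1) and Zeb2 in hr against ha (0.01 without hr 2-1, 0.126 without ha 2; lowest -0.268, without ha 1). In each case the cause was not tested.

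In experiment 1, genes called numbered 4598 by DESeq2 and 6767 without WT 202 and EFPrx1MSCLC 225, and 1219 (without WT 237) to 5087 (without WT 202) with 1 library left out, against 2887. Members called then ranged from 1 to 4. In ha against EF, close pairs summed gave 736 genes and 2 members, and leaving out 1 library gave 3075 to 5732 genes and 2 to 4 members. In hr against EF, genes called were 1973 by DESeq2, 1927 with only the 2 groups compared, 0 with close pairs summed by edgeR (797 at an unadjusted p under 0.05), and 0 to 1796 with 1 library left out, the 0 without either EF library. Members called were 1 by DESeq2 and 1 with only the 2 groups compared. In hr against ha, close pairs summed gave 1272 genes and 2 members. Summing leaves EF with 1 library, which is assumed to vary like the other groups.

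With the last title number as a replicate block, genes called were 5232 in ha against EF, 322 in hr against EF and 4686 in hr against ha, with 3, 0 and 3 members. Under that block the calls of Twist2 in ha against EF (edgeR adjusted p = 0.0674, range over its alternatives up to 0.195) and Twist1 in hr against ha (edgeR adjusted p = 0.0534, up to 0.322) were lost. The numbers did not pair the libraries (correlations of deviations from -0.148 to 0). No paired fit was made in experiment 1, where title numbers are not shared. Depth limits Esrp1, Grhl2 and Ovol1, which had at most 11 counts in any library.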

Other observations

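The title number 221 occurs in both experiments. EFPrx1MSCLC 221 had 4.02 CPM of Twist2, against 23.1 and 26.4 CPM in EF 1 and EF 2 of experiment 2, and 100 CPM of Zeb1, against 40.2 and 42.3. It had 241 CPM of Cdh11, against 0.266 and 0.319 in EF 1 and EF 2, and 35.4 CPM of Snai2, against 17.4 and 16.4. Levels set side by side here were scaled within separate experiments on separate flowcells, and the difference was not tested.

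Xist, transcribed from the inactive X chromosome, had 123 to 449 CPM in hr and 398 and 933 CPM in ha, against 0.354 and 0.0797 CPM in EF, while Ddx3y was at 0 in all 8 libraries. In experiment 1, Xist had 774 to 1198 CPM in EFPrx1MSCLC, against 2.65, 2.19 and 545 CPM in WT 202, 234 and 237. Its part in the member values was not tested.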
